A study of Mus musculus with 7 samples.

Results

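The genes described here are those of MHC class II antigen presentation in mouse bone marrow derived macrophages (BMDMs). They were chosen by symbol, as the rows of both deposited tables named Ciita, Cd74, H2-Aa, H2-Ab1, H2-Eb1, H2-DMa, H2-DMb1 and H2-DMb2. All 8 were found in both tables, among 48440 genes in the table of the LPS experiment and 55352 genes in the table of the AAV experiment. BMDMs of wild type C57BL/6 mice were grown with 20 ng per mL M-CSF, the growth factor that drives marrow cells to macrophages. In the LPS experiment they were left without treatment (LPS 0h) or given 100 ng per mL lipopolysaccharide (LPS), a bacterial wall component, for 2 h or 4 h. Each time has a single library. In the AAV experiment they were infected for 48 h with an adeno-associated virus that carried GFP (AAV-GFP, 2 samples) or Shisa3 (AAV-SHISA3, 2 samples) behind the CAG promoter, which is active in most cell types. No source says whether the 2 samples of a group came from separate mice or cultures, so the p-values below measure only the spread between these samples, which may be technical.

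MHC class II molecules carry peptides from engulfed material to the cell surface, where CD4+ T cells read them. Each is a pair of chains: H2-Aa with H2-Ab1 makes I-A, and H2-Eb1 is the beta chain of I-E. Cd74, the invariant chain, holds new class II molecules and guides them to the endosome, where proteases cut it down, and the H2-DM pair (H2-DMa with H2-DMb1 or H2-DMb2) trades its last fragment for a peptide. Ciita is the coactivator that class II genes depend on. It binds no DNA itself and docks on factors that sit on a shared set of promoter elements, among them the X2 box, bound by CREB family factors, and the Y box, bound by NF-Y. Macrophages are known for low class II levels that interferon-gamma raises, and C57BL/6 mice make no I-E because the alpha chain gene of that pair is defective.

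The 6 H2 genes lie within 197134 bases of chromosome 17 of GRCm38 (GENCODE M21): H2-DMa at 17:34119541-34139101, H2-DMb2 at 17:34143307-34151555, H2-DMb1 at 17:34153072-34160230, H2-Ab1 at 17:34257689-34269419, H2-Aa at 17:34282744-34287823 and H2-Eb1 at 17:34305867-34316674. H2-Aa is on the minus strand and the other 5 are on the plus strand. Ciita lies at 16:10480059-10528418 on the plus strand. The following stretches from RefSeq promoters (GRCm38.p6) come from 3 of the genes whose values follow. They are shown because they hold letter forms of the elements on which Ciita's partners sit. They read 5′ to 3′ along the gene, and the capitals mark an X2 letter form followed by GATTGG, the core of a Y box.

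H2-Aa, chr17:34287862-34287917, minus strand: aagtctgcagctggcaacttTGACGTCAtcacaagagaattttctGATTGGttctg
H2-Eb1, chr17:34305761-34305817, plus strand: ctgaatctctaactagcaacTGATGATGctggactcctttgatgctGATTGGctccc
H2-DMb2, chr17:34145112-34145168, plus strand: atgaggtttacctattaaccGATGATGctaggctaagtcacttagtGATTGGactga

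The capitals are 17 bases apart in H2-Aa, 18 in H2-Eb1 and 19 in H2-DMb2. Searched on both strands of the 250 bases before 32851 RefSeq starts, TGATGATG was found in 1.24% of promoters, TGACGTCA in 1.55%, GATGATG (which TGATGATG contains) in 2.92% and GATTGG in 14.6%. TGATGATG or TGACGTCA followed within 40 bases by GATTGG was found in 27 promoters, or 0.0822%, among them those of H2-Aa, H2-Eb1 and H2-DMb1. GATGATG followed in the same way by GATTGG was found in 14 promoters, or 0.0426%, among them that of H2-DMb2. The stretch of H2-DMb1 is not printed because GENCODE places it in an untranslated exon, and the H2-DMb2 stretch lies within an intron of a longer isoform. Of the 2 promoters listed for H2-DMa, 1 held GATTGG and neither held an X2 form. No promoter was listed for Cd74, H2-Ab1 or Ciita, so theirs were not searched. The letter forms were chosen with these promoters in view, and a match describes the letters, not a bound site.

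The LPS table held whole reads divided by 1 factor per library, so reads could be recovered for 100% of its values. The 0 h library held 15588502 reads, the 2 h library 7263258 and the 4 h library 32659392. The AAV table held values that sum to between 999778 and 999818 per sample and were read as TPM (transcripts scaled to a common sum), with depth unknown. All 10 macrophage markers, Lyz2, Csf1r and Adgre1 among them, were above 0 in all 7 libraries. B cells and dendritic cells express class II at high levels, so their markers were checked. Of the B cell genes, the defining Ms4a1 and Pax5 had at most 1 read in any LPS library and at most 0.16 TPM in any AAV sample. Others of the 10 B cell markers were present, with Ighm at 2730 reads at 0 h and 16.5 to 35.2 TPM and Cd79b at 109 reads at 0 h and 7.88 to 13.5 TPM. The summed 14 dendritic cell markers were at 86.0, 89.4 and 82.2 RPM (reads over the library's total, scaled to a common sum) at 0, 2 and 4 h.

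The LPS time course addressed how macrophages respond to a bacterial signal. In the LPS libraries Ciita and the chains whose transcription it is known to drive differed from 0 h in opposite directions. Cd74 and the 3 peptide-binding chains H2-Aa, H2-Ab1 and H2-Eb1 were higher at 2 h and at 4 h than at 0 h, from 1.97-fold to 3.58-fold in the authors' values. Ciita was at 0.640 of its 0 h value at 2 h and at 0.327 at 4 h. The H2-DM genes stayed nearer to their starting level or below it. With 1 library per time there is no replicate check and no test, and all intervals given for this experiment are 95% exact intervals that cover counting error only.

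Ciita had 965 reads at 0 h, 182 at 2 h and 374 at 4 h. In the authors' values these were 621, 397 and 203, lower at each later time. The ratio to 0 h was 0.640 (interval 0.543 to 0.751) at 2 h and 0.327 (0.290 to 0.369) at 4 h. At 4 h, 13.4% of the 17854 kept genes (mean value 1 or more) had a lower log2 fold change than Ciita. Ciita shares 329 exonic bases, 3.45% of its exons, with Dexi on the opposite strand. Whether the counting used strand is not given in the sources used here, and Dexi stood at 98.4, 120 and 79.9 in the authors' values.

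Cd74, on chromosome 18, had the most reads of the 8 genes in every library, with 6783, 7151 and 23598 reads. Its authors' values were 4363, 15615 and 12823, so it was highest at 2 h and stayed high at 4 h. The ratio to 0 h was 3.58 (interval 3.46 to 3.70) at 2 h and 2.94 (2.86 to 3.02) at 4 h. Its log2 fold change stood above that of 89.7% of genes at 2 h and of 85.9% at 4 h.

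Among the peptide-binding chains, H2-Ab1 had the larger change, with authors' values of 1148, 3791 and 2980 from 1784, 1736 and 5483 reads. Its ratio to 0 h was 3.30 (interval 3.09 to 3.53) at 2 h and 2.60 (2.46 to 2.74) at 4 h. H2-Eb1, which lacks a partner chain in this strain, followed the same course with 813, 2406 and 1632, a ratio of 2.96 (2.73 to 3.21) and then 2.01 (1.88 to 2.15). H2-Aa, the alpha chain that pairs with H2-Ab1, had values of 1299, 2697 and 2556 from 2020, 1235 and 4703 reads. Its ratio was 2.08 (1.93 to 2.23) at 2 h and 1.97 (1.87 to 2.07) at 4 h. At 4 h Cd74, H2-Ab1 and H2-Eb1 were at 0.678 to 0.821 of their 2 h value with intervals below 1, while for H2-Aa the ratio of 0.948 had an interval of 0.890 to 1.01.

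Of the peptide editors, H2-DMb1 was above its 0 h value at 4 h and H2-DMa and H2-DMb2 were below it. H2-DMa had authors' values of 431, 561 and 358, a ratio of 1.30 (interval 1.12 to 1.51) at 2 h and 0.830 (0.744 to 0.925) at 4 h. H2-DMb1 had 433, 745 and 543, a ratio of 1.72 (1.51 to 1.96) and then 1.26 (1.14 to 1.39). H2-DMa shares 360 exonic bases, 10.4% of its exons, with Brd2 on the opposite strand. As for Ciita, whether the counting used strand is not given, so its count may hold reads of Brd2. H2-DMb2 was low throughout, with 31, 6 and 15 reads, and its ratio at 4 h of 0.409 had an interval of 0.205 to 0.780. At 2 h its interval held 1 (0.224 to 1.60), so a change was not detectable at this depth. The main transcripts of H2-DMb1 and H2-DMb2 were 93.9% identical over 1255 aligned bases and 26.8% of the 50-base windows of H2-DMb2 also occur in H2-DMb1, so the split of reads between these genes is uncertain.

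**Figure D1:**
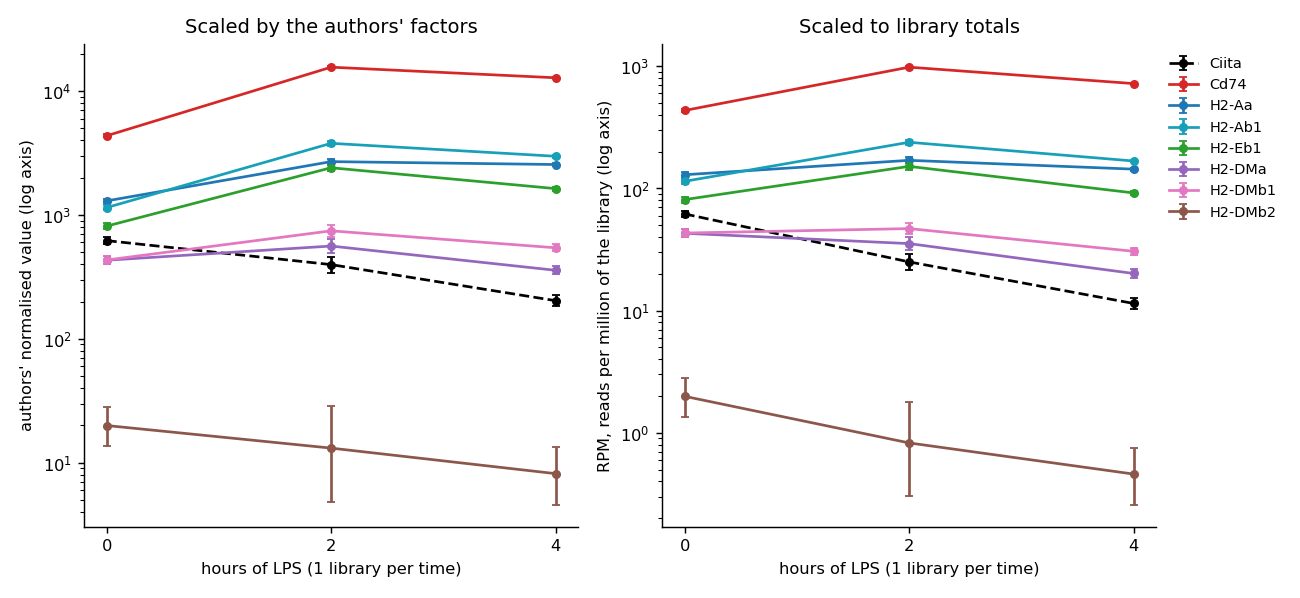
The 8 class II genes at 0, 2 and 4 h of LPS, 1 library per time, as the authors' normalised values (left) and as RPM (right), both on log axes, with 95% exact Poisson intervals for counting error. Ciita, the dashed line, goes from 621 to 203 on the left while Cd74 goes from 4363 to 12823, and on the right the H2-DM genes end lower at 4 h than they start at 0 h.

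How far these genes moved depended on the scale. Dividing reads by library totals instead of the authors' factors shifted the median log2 fold change of all kept genes from -0.05 to -0.68 at 2 h and from -0.04 to -0.81 at 4 h. Past 2-fold at 2 h were 4 of the 8 genes higher (Cd74, H2-Aa, H2-Ab1 and H2-Eb1) and 0 lower by the authors' values, against 20.5% and 24.7% of all kept genes. By library totals there were 2 higher (Cd74 and H2-Ab1) and 2 lower (Ciita and H2-DMb2), against 13.7% and 39.9%. The counting interval of H2-DMb2, on 31 and 6 reads, held 1 at 2 h on this scale too. At 4 h the authors' values put 3 genes higher (Cd74, H2-Ab1 and H2-Eb1) and 2 lower (Ciita and H2-DMb2), against 22.2% and 23.6%, while library totals put 0 higher and 3 lower, H2-DMa being the third, against 13.1% and 43.5%.

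The opposite course of Ciita and the chains held on both scales. By library totals Ciita was at 0.405 (interval 0.344 to 0.475) and 0.185 (0.164 to 0.209) of its 0 h level. On that scale Cd74 was 2.26-fold (2.19 to 2.34) and 1.66-fold (1.62 to 1.71) higher, H2-Ab1 2.09-fold and 1.47-fold, H2-Eb1 1.87-fold and 1.13-fold, and H2-Aa 1.31-fold and 1.11-fold. The intervals of all 4 of these genes were above 1 at both times. The direction of H2-DMa at 2 h and of H2-DMb1 at 4 h depended on the scale. The library totals put H2-DMa at 0.823 (0.710 to 0.952) and H2-DMb1 at 0.709 (0.643 to 0.783). With TMM factors from edgeR, another scaling of the reads, both kept the sign of the authors' values, at log2 fold changes of 0.31 and 0.28. At 4 h H2-DMa turned as well, from a log2 fold change of -0.27 in the authors' values to 0.10 when each library was centred on the median of its genes.

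Ratios between genes of one library need no scale. Cd74 had 7.03 reads (interval 6.57 to 7.53) for each Ciita read at 0 h, 39.3 (33.9 to 45.8) at 2 h and 63.1 (57.0 to 70.1) at 4 h. H2-Ab1 had 1.85, 9.54 and 14.7 reads per Ciita read, and H2-Aa 2.09, 6.79 and 12.6. The peptide editors moved in the same sense by less, H2-DMa from 0.694 to 1.41 and 1.76 and H2-DMb1 from 0.697 to 1.87 and 2.67. Only for H2-DMb2, at 0.0321, 0.0330 and 0.0401, did the intervals of all 3 libraries overlap, on 31, 6 and 15 reads.

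**Figure D2:**
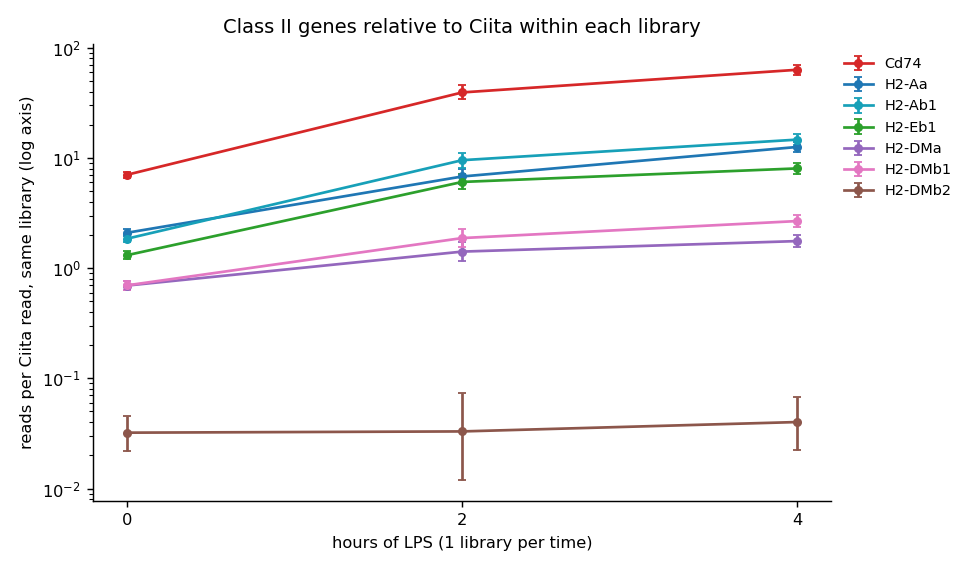
Reads of each class II gene per Ciita read in the same library (log axis) at 0, 2 and 4 h of LPS, with 95% exact intervals for counting error. Cd74 stands at 7.03, 39.3 and 63.1, and 6 of the 7 genes are higher at both later times than at 0 h; H2-DMb2 is flat within its intervals.

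The partners of a pair did not keep a fixed ratio either. H2-Ab1 had 0.883 reads (interval 0.828 to 0.942) per H2-Aa read at 0 h, 1.41 (1.31 to 1.51) at 2 h and 1.17 (1.12 to 1.21) at 4 h, so the beta chain passed the alpha chain after LPS. H2-DMb1 went from 1.00 (0.901 to 1.12) to 1.33 (1.13 to 1.57) and 1.52 (1.38 to 1.68) reads per H2-DMa read. Cd74 and H2-Ab1 moved most nearly together, at 3.80, 4.12 and 4.30 Cd74 reads per H2-Ab1 read.

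Per length, as RPM divided by the main transcript's length in kilobases (RPKM), the order of levels at 0 h was Cd74 309, H2-Aa 115, H2-Ab1 94.4, H2-Eb1 48.6, H2-DMb1 30.7, H2-DMa 25.9, Ciita 10.3 and H2-DMb2 1.40. At 4 h the order was Cd74 512, H2-Ab1 139, H2-Aa 128, H2-Eb1 55.1, H2-DMb1 21.8, H2-DMa 12.2, Ciita 1.91 and H2-DMb2 0.323. H2-Aa and H2-Ab1 thus exchanged places. The 7 genes other than Ciita together took 0.0848% of all reads at 0 h, 0.163% at 2 h and 0.118% at 4 h. In bulk RNA, fewer cells of a type and less RNA per cell cannot be told apart.

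A list of 26 genes held the transcription factors and signalling genes around Ciita. At 2 h 12 of them were past 2-fold higher and 3 lower by the authors' values, against 20.5% and 24.7% of all kept genes. At 4 h the counts were 13 and 3, against 22.2% and 23.6%, with a median log2 fold change of 0.90 at 4 h against -0.04 for all kept genes. By library totals 6 were higher and 4 lower at 2 h, against 13.7% and 39.9% of all kept genes. On that scale 7 were higher and 7 lower at 4 h, against 13.1% and 43.5%, with a median of 0.08 against -0.81. Jak2, a kinase of the interferon-gamma receptor, had the largest difference, with authors' values of 771, 14987 and 22775 and a log2 fold change of 4.88 at 4 h (4.06 by library totals). Nlrc5, the coactivator of MHC class I genes and a relative of Ciita, went from 936 to 6972 and 17141, a log2 fold change of 4.19 (3.37). Irf1, which carries the interferon signal to the Ciita gene, had a log2 fold change of 2.74 (1.92), and it was highest at 2 h, at 30233 against 1501 at 0 h. Ciita itself was lower in the same libraries in which these genes were higher.

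On the lower side, Irf4, a factor of B cells and dendritic cells, had 126, 28.4 and 13.0 from 196, 13 and 24 reads, a log2 fold change of -3.18 (-3.97 by library totals). Rfxank, a subunit of the RFX complex on which Ciita docks, went from 194 to 65.5 and 54.3, a log2 fold change of -1.81 (-2.63). The other RFX subunits were at 0.11 (Rfx5) and -0.92 (Rfxap), or -0.71 and -1.73 by library totals. Ifngr1, the ligand-binding chain of the interferon-gamma receptor, was at -1.08 (-1.90) at 4 h and at 0.14 (-0.52) at 2 h.

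Of 16 genes that work in the class II compartment, 3 were past 2-fold higher at 4 h and 0 lower by the authors' values, against 22.2% and 23.6% of all kept genes, with a median of 0.08 against -0.04. By library totals 2 were higher and 3 lower, against 13.1% and 43.5%, with a median of -0.74 against -0.81. Ctsc, a protease that activates other lysosomal proteases, had 4595, 16118 and 53521, a log2 fold change of 3.54 (2.72 by library totals). Sppl2a, the membrane protease that removes the last stub of Cd74, was at 2.03 (1.21) and Ctsz at 1.09 (0.27). Ctss, the protease known for cutting the invariant chain, was at 29997, 28910 and 33238, within 0.15 on the log2 scale by the authors' values and at -0.68 at 4 h by library totals.

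A further list held genes that remove class II from the surface or hold it there. Of its 9 kept genes, 5 were past 2-fold higher and 0 lower at 4 h by the authors' values, against 22.2% and 23.6% of all kept genes, with a median of 1.32. By library totals 3 were higher and 1 lower, against 13.1% and 43.5%, with a median of 0.50. March1, the ubiquitin ligase that marks class II for breakdown, had 1139, 1542 and 6095, a log2 fold change of 0.44 at 2 h and 2.42 at 4 h (1.60 by library totals). Il10, the cytokine that raises March1, went from 70.8 to 1941 and 1617, a log2 fold change of 4.49 (3.68) at 4 h. Cd83, which opposes March1, was highest at 2 h with 331, 3786 and 1595, a log2 fold change of 2.26 (1.44) at 4 h, and the tetraspanin Cd82 was at 1.58 (0.76). March1 and its relative March8 were found by gene identifier because their symbols had been turned into dates.

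The further class II chains were near absence. H2-Ea-ps, the defective I-E alpha gene, had 0 reads in all 3 libraries, for which the 95% exact upper limit is 3.69 reads per library. H2-Oa and H2-Ob form the H2-O inhibitor of H2-DM in B cells. H2-Oa had 18, 5 and 26 reads, or authors' values of 11.6, 10.9 and 14.1. H2-Ob had 13, 13 and 23 reads from libraries of unequal depth, or authors' values of 8.36, 28.4 and 12.5. At 2 h it was 3.39 times its 0 h value (95% counting interval 1.45 to 7.95), and 2.15 times by library totals (0.917 to 5.03). H2-Eb2 had 12, 3 and 3 reads. Of the 3 further chains kept it was the 1 past 2-fold lower at 4 h on both scales. Of all kept genes 23.6% were so by the authors' values and 43.5% by library totals.

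Markers of other cells moved in these libraries as well, and their part in the class II values was not tested. The 10 B cell markers summed to 190, 63.7 and 34.2 RPM, most of it Ighm with 2730, 414 and 1006 reads. Of the 4 kept, 2 were past 2-fold lower at 4 h by the authors' values, Ighm (-1.68) and Cd79b (-2.18), against 23.6% of all kept genes. Higher was 1, Ebf1 (1.07, on 2, 0 and 7 reads), against 22.2%. By library totals 3 of the 4 were lower and 0 higher, against 43.5% and 13.1%. Of the 13 dendritic cell markers kept, 5 were past 2-fold higher and 4 lower at 4 h by the authors' values, against 22.2% and 23.6% of all kept genes, and 3 higher and 5 lower by library totals, against 13.1% and 43.5%. By the authors' values the higher ones included the chemokine Ccl22 (4.51), the chemokine receptor Ccr7 (4.25) and Dpp4 (1.22), as well as Ccl17, which had 0, 10 and 26 reads. The lower ones were Clec10a (-1.83), Mgl2 (-1.49), Cd209a (-1.16) and Flt3 (-1.02). The 10 macrophage markers summed to 32838, 22739 and 18415 RPM. Their median log2 fold change at 4 h was -0.82 by library totals, against -0.81 for all kept genes. By the authors' values it was 0.007 against -0.04. Of these 10 markers 2 were past 2-fold higher at 4 h by the authors' values, Fcgr1 (3.48) and Cd14 (2.62). Lower was 1, Cd163 (-2.00), and of all kept genes 22.2% were higher and 23.6% lower. By library totals 2 were higher and 4 lower, against 13.1% and 43.5%.

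The AAV experiment addressed what raised Shisa3 does in macrophages. In it 0 of the 6 tested class II genes passed an adjusted p of 0.05 by limma in either direction, against 6.33% of 11218 tested genes called, 2.23% higher and 4.1% lower. Before adjustment p was under 0.05 for 1 of the 6 that was higher (H2-DMa) and 0 that were lower, against 8.21% and 19.8% of all tested genes. Cd74, H2-Aa, H2-Ab1 and H2-Eb1 had mean TPM 1.43 to 1.54 times that of AAV-GFP in AAV-SHISA3, and their samples spread widely in both groups. Shisa3 itself was at 7.88 and 10.9 TPM in AAV-GFP and at 12.3 and 17.8 TPM in AAV-SHISA3. Its groups did not overlap, with a log2 fold change of 0.62 ± 0.22 (SE) that did not pass the test (limma adjusted p = 0.138).

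Cd74 was at 91.8 and 144 TPM in AAV-GFP and at 127 and 216 TPM in AAV-SHISA3. The groups overlapped, since the lower AAV-SHISA3 sample lay below the higher control. The log2 fold change was 0.53 ± 0.30 (SE; interval -0.21 to 1.26; limma adjusted p = 0.30).

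H2-Aa was at 13.9 and 23.1 TPM in AAV-GFP and at 23.3 and 33.7 TPM in AAV-SHISA3. Its groups did not overlap, by a margin of 23.05 against 23.32 TPM. The log2 fold change was 0.62 ± 0.27 (SE; interval -0.04 to 1.28; limma adjusted p = 0.199). H2-Ab1, its partner, was at 21.8 and 35.9 TPM in AAV-GFP and at 27.9 and 54.6 TPM in AAV-SHISA3, with overlap, at 0.47 ± 0.35 (SE; limma adjusted p = 0.429). H2-Eb1 overlapped too, at 11.7 and 19.9 TPM against 14.9 and 31.6 TPM, with 0.48 ± 0.38 (SE; limma adjusted p = 0.446).

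H2-DMa and H2-DMb1, of the peptide editors, differed less between the samples of a group than Cd74 did. H2-DMa was at 12.1 and 13.0 TPM in AAV-GFP and at 14.5 and 18.2 TPM in AAV-SHISA3, without overlap, and had a log2 fold change of 0.35 ± 0.14 (SE; interval 0.01 to 0.70; limma adjusted p = 0.170). H2-DMb1 was at 15.8 and 14.4 TPM against 16.1 and 14.6 TPM, a log2 fold change of 0.02 ± 0.11 (SE; interval -0.25 to 0.30). Brd2, which overlaps H2-DMa on the other strand, was at 151 and 168 TPM in AAV-GFP and at 126 in both AAV-SHISA3 samples.

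Ciita was low, at 0.13 and 0.20 TPM in AAV-GFP and at 0.16 TPM in both AAV-SHISA3 samples. H2-DMb2 was at 0.62 and 0.28 TPM against 0.40 and 0.50 TPM. Both were below the mean of 1 TPM needed for the test. The group means of Ciita were 0.165 and 0.160 TPM, and the number of reads behind these values is unknown.

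**Figure D3:**
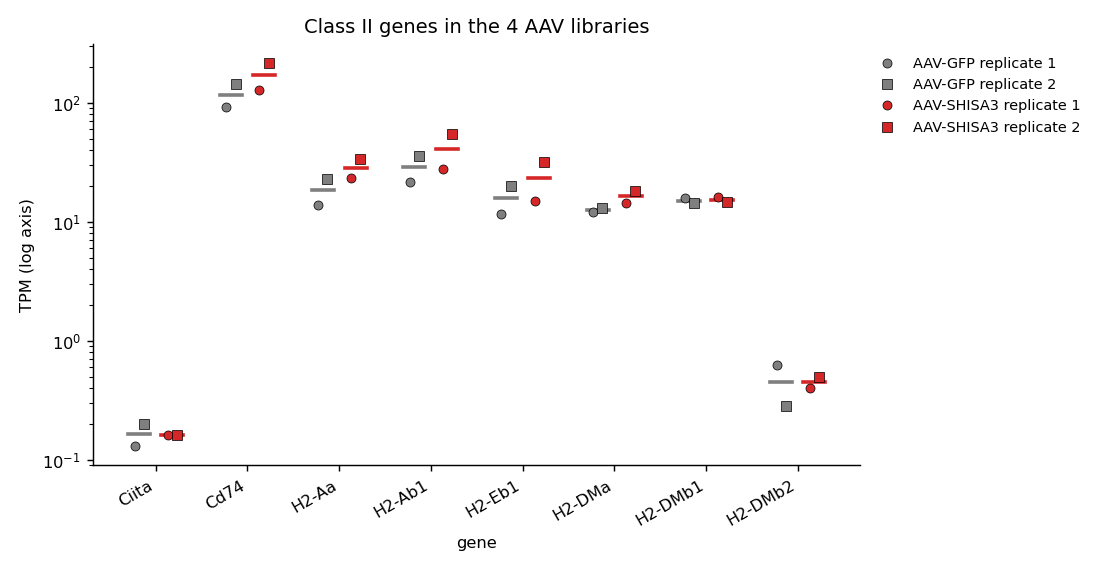
TPM (log axis) of the 8 class II genes in each of the 2 AAV-GFP (grey) and 2 AAV-SHISA3 (red) samples, circles for replicate 1 and squares for replicate 2, with bars at the group means. For Cd74, H2-Aa, H2-Ab1 and H2-Eb1 the squares lie above the circles in both groups, and only H2-Aa and H2-DMa have both red points above both grey ones.

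The AAV-SHISA3 pair lay wholly above the AAV-GFP pair for 2 of the 6 tested genes (H2-Aa and H2-DMa) and wholly below it for 0, where 18.2% and 41.2% of all tested genes did so. With 2 samples per group the exact two-sided permutation test cannot go below p = 0.333, which was its value for both. Replicate 2 was above replicate 1 in both groups for Cd74, H2-Aa, H2-Ab1, H2-Eb1 and H2-DMa. Of all tested genes 33.8% showed that order, and the labels do not say that the numbers pair the samples. The log2 difference of replicate 2 from replicate 1 in Cd74 was 0.64 in AAV-GFP and 0.76 in AAV-SHISA3, larger than the 0.53 between the groups.

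Leaving out 1 sample moved some of these values by over 1.5 times, while H2-DMa stayed between 0.20 and 0.51 on the log2 scale. Without AAV-SHISA3 replicate 2, H2-Ab1 was at -0.0069 and H2-Eb1 at -0.035 on the log2 scale and Cd74 at 0.15. Across the 4 such fits Cd74 ranged from 0.15 to 0.91 and H2-Aa from 0.27 to 0.97, with 0 of the 6 genes called in each. With no filter on low values limma called Cd74 (adjusted p = 8.21e-05), H2-Aa (adjusted p = 0.0036) and H2-Ab1 (adjusted p = 0.045) higher. Over all 55352 genes that fit called 950 higher and 1605 lower. The tool warned that most variances in it were 0 and its estimates unreliable.

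Ratios between class II genes were also taken within each AAV sample. H2-Ab1 was at 1.58 and 1.56 times the TPM of H2-Aa in AAV-GFP and at 1.20 and 1.62 times in AAV-SHISA3, so that AAV-SHISA3 replicate 1 stood apart from the other 3. Cd74 was at 4.20 and 4.00 times the TPM of H2-Ab1 in AAV-GFP and at 4.57 and 3.96 times in AAV-SHISA3. Cd74 stood at 706 and 718 times the TPM of Ciita in AAV-GFP and at 796 and 1350 times in AAV-SHISA3. In the LPS libraries the same ratio per length was 29.9 at 0 h, 167 at 2 h and 269 at 4 h. The tables were made separately and these values are set side by side only.

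Of the 59 symbols in the 4 lists around the class II genes, 47 were tested in the AAV samples. Limma called 1 of them higher and 2 lower, against the 2.23% and 4.1% of all tested genes. The split of all 710 called genes was 35.2% higher, and 64.1% higher of 640 after centring on sample medians, which shifted the middle of the log2 fold changes over all tested genes by 0.12. In the transcription list 24 genes were tested, and Creb1, the CREB factor of the X2 box, fell, at 29.3 and 25.8 TPM in AAV-GFP and 19.0 and 15.7 TPM in AAV-SHISA3 (-0.64 ± 0.13 SE on the log2 scale, limma adjusted p = 0.048). Centring ended this call (adjusted p = 0.092). The RFX subunits Rfx5 and Rfxank were at -0.38 and -0.36 with an adjusted p of 0.144 and 0.145 by limma.

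Of the 16 genes of the class II compartment, Ctsl, a protease that can cut the invariant chain, fell from 3307 and 3102 TPM to 2410 and 2449 TPM (-0.40 ± 0.07 SE, limma adjusted p = 0.038), and centring ended that call too (adjusted p = 0.138). Ctss was at -0.11 with an adjusted p of 0.388 by limma. In the list of surface turnover 7 genes were tested, and Il10 rose from 30.2 and 34.3 TPM to 56.8 and 53.2 TPM (0.75 ± 0.10 SE, limma adjusted p = 0.023). The calls of Il10, Creb1 and Ctsl were lost when any 1 sample was left out, with limma adjusted p of 0.0945 to 0.173, 0.123 to 0.202 and 0.129 to 0.203, and without the trend, at 0.0582, 0.084 and 0.0973. March1 and March8 were not used in this table because 2 rows carried the same date in place of a symbol. H2-Oa and H2-Ob, of the further chains, were too low to be tested. H2-Oa was at 0.17 and 0.28 TPM in AAV-GFP and 0.24 and 0.17 TPM in AAV-SHISA3, and H2-Ob at 0.08 and 0.22 TPM against 0.38 and 0.55 TPM, where the groups did not overlap.

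**Figure D4:**
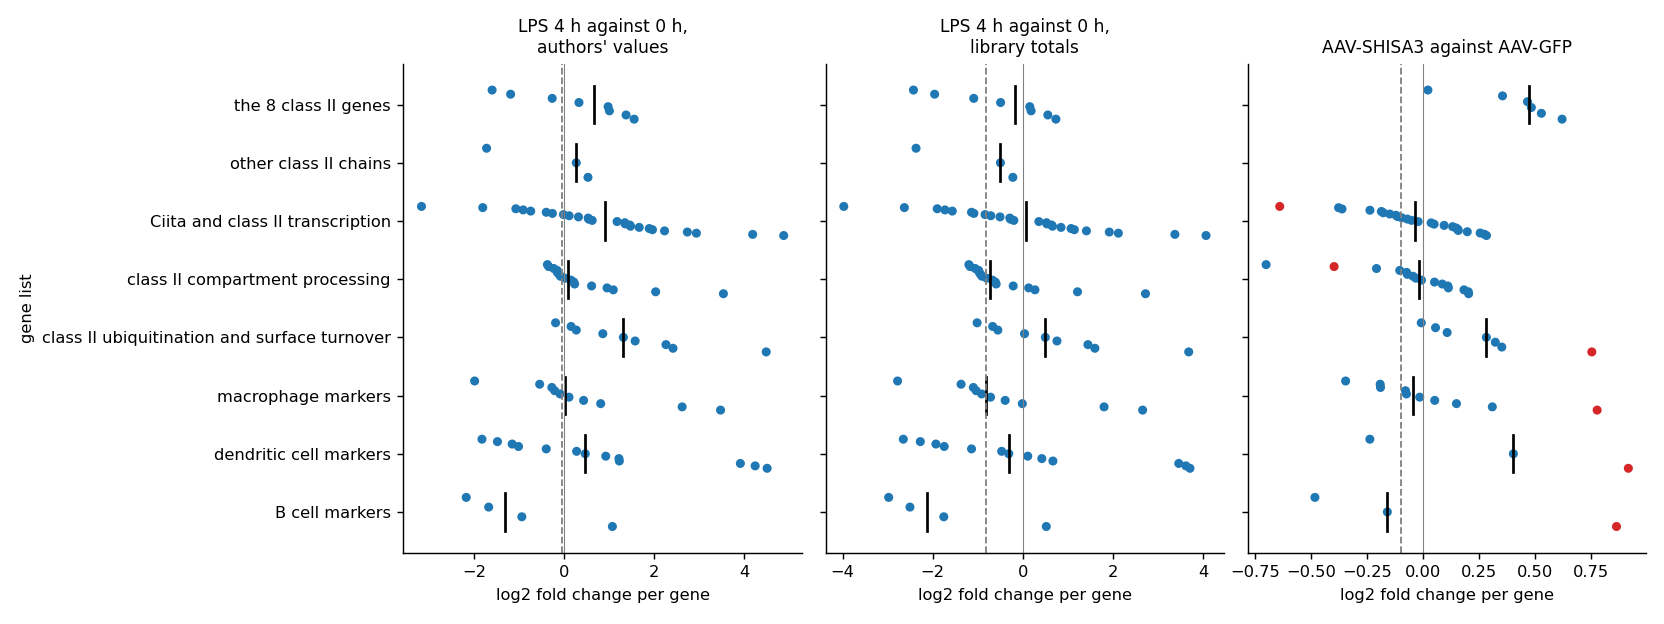
Log2 fold change of each gene (points) in the class II genes, the 4 lists around them and the 3 marker lists, for LPS 4 h against 0 h by the authors' values (left) and by library totals (middle), and for AAV-SHISA3 against AAV-GFP (right), where red marks a limma adjusted p under 0.05. Black bars are list medians and the dashed line is the median of all genes, at -0.04, -0.81 and -0.10.

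Dendritic cell markers were low in the AAV samples. The 14 markers summed to 8.38 and 9.19 TPM in AAV-GFP and to 11.1 and 13.5 TPM in AAV-SHISA3, with Zbtb46 and Flt3 at 0.21 TPM or less and Cd209a and Ccl17 at 0 in every sample. Among the 3 that were tested, Clec10a, a lectin of dendritic cells and of some macrophages, rose from 2.20 and 1.73 TPM to 4.16 and 5.03 TPM (0.92 ± 0.18 SE, limma adjusted p = 0.044), while Itgax was at 0.82 and 1.26 TPM against 1.42 and 1.97 TPM. Ccr7, the other one tested, was at 1.98 and 3.04 TPM against 1.62 and 2.30 TPM. Of the untested ones, Clec9a was at 0.71 and 0.61 TPM against 0.02 and 0.19 TPM, and Siglech lay below its AAV-GFP samples too. Mgl2, at 0.49 and 0.68 TPM against 0.90 and 1.55 TPM, lay above them, as did Ccl22, Xcr1 and Zbtb46. The 7 class II genes other than Ciita summed to 168 and 250 TPM in AAV-GFP and to 224 and 369 TPM in AAV-SHISA3, with the same lowest and highest sample as the dendritic cell markers and the other 2 samples in the opposite order. The B cell markers summed to between 42.8 and 59.9 TPM, with Ighm, which rose by limma (0.86 ± 0.12 SE, adjusted p = 0.024), at 16.5 and 18.1 TPM against 35.2 and 29.6 TPM. The other B cell markers tested were Cd79b, at 13.5 and 11.4 TPM against 9.35 and 7.88 TPM (-0.48 ± 0.14 SE, limma adjusted p = 0.0999), and Cd22, at -0.16 on the log2 scale, and the median of the list was -0.16. The 10 macrophage markers summed to between 34767 and 38345 TPM, and of them Cd14 rose (0.78 ± 0.07 SE, limma adjusted p = 0.015). The calls of Clec10a, Ighm and Cd14 were lost when any 1 sample was left out, with limma adjusted p of 0.132 to 0.211, 0.0888 to 0.18 and 0.0708 to 0.173, and without the trend, at 0.0597, 0.0576 and 0.0557. The part of these markers in the class II values was not tested.

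Across the 7 libraries, the genes nearest to Cd74 in pattern were found by the Euclidean distance of log2 values, each table centred on the gene's own mean, among 6582 genes with a mean of at least 10 in both tables. They were Thbs1 (distance 0.44), Rbpms (0.46), Sdc1 (0.53), Crlf2 (0.56) and Top1 (0.56). Among the class II genes H2-Ab1 was nearer than any of these, at 0.20, and H2-Eb1 stood at 0.44, H2-Aa at 0.61, H2-DMb1 at 1.35, H2-DMa at 1.46 and Ciita at 2.50. The nearest to Ciita were Adgre5 (0.11), Adcy7 (0.18), Dcaf8 (0.19), Ncoa4 (0.20) and Haghl (0.20), and its nearest class II gene was H2-DMb2, at 0.44. Ciita and H2-DMb2 hardly vary on this scale in the AAV samples because their TPM lie below 1. Their distances to other genes thus rest on the 3 LPS libraries and on how flat those genes were in the AAV samples.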

How the data were processed

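The LPS table, as deposited by the authors, holds a signal per gene: reads over a factor that is constant within a library. The aligner, the counter and the tool behind the factors are not given in the sources used here; the submitters' processing notes name the build mm9. Its identifiers were found in GENCODE M21 for 99.2% of genes (83.8% in the same version), from which positions and transcript lengths were taken. Values were whole multiples of 1 step per library within 0.01. Genes were kept at a mean of at least 1, folds were taken on log2(value + 1) and ratios of reads got 95% exact intervals. Date-like symbols stood in 27 rows and were read by identifier.

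For the AAV experiment the deposited values were read as TPM from their sums, which the authors do not state. limma 3.58.1 (R 4.3.3), with a trend, was fitted to log2(TPM + 1) of the 11218 genes whose mean reached 1 TPM, adjusted by Benjamini-Hochberg, after a check on simulated data. A fold change on that scale understates the change of low genes. TMM factors for an alternative came from edgeR 4.0.16.

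The genes, lists and tests were chosen with earlier results of these data known. Named from the lists are the genes called, up to 4 per direction by size, or else up to 2 with the largest mean, and Shisa3. For LPS, called means past 2-fold at 4 h with a mean of at least 10. Dexi, Brd2, Rfx5, Rfxap, Rfxank, Ctss, March8, Itgax, Zbtb46, Clec9a, Cd22, Ebf1, H2-Ea-ps, H2-Eb2 and the defining markers were named after their values were seen. So were Xcr1 and Siglech, and Mgl2 and Ccl22 in the AAV samples. Samples were grouped by the labels, and 0 sample columns were left unused. Some genes of the lists are not reported here by name.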

Additional observations from a re-analysis of the deposited data

How the results depend on the processing

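In the AAV comparison, limma called 0 of the 6 tested class II genes without its trend and after centring. The same held with at least 1 TPM in every sample and with a pseudocount of 0.1. With no filter all 8 class II genes entered the fit and 3 were called higher. The labels give both groups the numbers 1 and 2 without saying that they pair the samples. The correlation across genes of replicate 1 minus replicate 2 between the groups was 0.19, and with 2 pairs the fit with the replicate number as a block is a hint from the data only: in it 3 class II genes (Cd74, H2-Aa and H2-Ab1) were called higher. Over all genes 250 were called higher and 460 lower; the numbers were 1 and 4 without the trend, 410 and 230 after centring, 950 and 1605 with no filter, and 424 and 851 with the replicate block, and they ran from 0 to 27 higher and from 0 to 7 lower when 1 sample was left out (the lone sample is then assumed to vary like the other group). In the lists, 1 higher and 2 lower became 0 and 0 without the trend and in each fit with 1 sample left out, 3 and 0 after centring and 4 and 4 with no filter; 2 were higher with at least 1 TPM in every sample and 2 with the replicate block. The class II genes with both AAV-SHISA3 samples above both AAV-GFP samples numbered 2, against 18.2% of all tested genes, and 3 to 5 when 1 sample was left out, a layout in which 25.0% to 28.6% of all tested genes had such an order. When 1 sample was left out, the log2 fold change ran from -0.0069 to 0.94 for H2-Ab1 and from -0.035 to 1.00 for H2-Eb1, each turning without AAV-SHISA3 replicate 2, and from -0.044 to 0.085 for H2-DMb1, turning without AAV-GFP replicate 2 or AAV-SHISA3 replicate 1. Apart from the no-filter fit, the cause of these moves was not tested. In the LPS comparison, library totals changed the class II genes past 2-fold at 2 h from 4 to 2 higher and from 0 to 2 lower, and at 4 h from 3 to 0 higher; at 4 h, 2 lower became 1 after centring and 1 with a pseudocount of 5. In the lists, library totals changed 17 to 10 and 21 to 12 higher at 2 h and 4 h and 4 to 12 lower at 4 h, and centring 4 to 2 lower at 2 h. TMM factors kept these counts within 1.5 times. An LPS log2 fold change moved beyond its counting interval in 30 of 112 cases, and Ciita stayed below 0 and Cd74, H2-Aa, H2-Ab1 and H2-Eb1 above 0 in all. Depth limits H2-DMb2, with at most 31 reads.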
